A study of Arabidopsis thaliana with 18 samples.

Results

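Of 11798 Arabidopsis genes on the ATH1 array whose only symbol is a locus code, 24 had stepwise higher signals from the apical to the basal part of the root in sorted cells of untreated plants, and a basal signal within a set range under cytokinin. They were chosen from group means of log2 signals. Untreated transition cambium exceeded untreated procambium by at least 1, untreated cambium exceeded untreated transition cambium by at least 1, the untreated cambium mean was at least 6, and the effect of the cytokinin BAP in cambium lay between -1 and 1. These 4 criteria used 10 of the 18 arrays. The other 8, from BAP-treated transition cambium, BAP-treated procambium and ARR5::GFP cells, entered no criterion. None of the 24 genes has another probe set in the annotation used here. The reference table gives them no name beyond the locus code and no product, so no function is stated for them.

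All plants were wild-type Columbia seedlings with an ER-localized GFP reporter, and GFP-positive root protoplasts were sorted by fluorescence before RNA extraction. In 16 arrays the reporter was ARR15::GFP, and pooled roots of 8-day seedlings had been dissected: cambium denotes the basal piece, transition cambium the next one and procambium the apical one. Without treatment there were 3 cambium, 2 transition cambium and 2 procambium arrays. Each zone also had 3 arrays from plants kept on 100 nM of the cytokinin BAP for 48 h from day 6. Another 2 arrays held ARR5::GFP cells of untreated 6-day seedlings, sorted from lower roots that were not dissected; per the labels this reporter marks procambium together with lateral root cap. Both reporters are promoters of cytokinin-induced response regulator genes, so the sort follows a promoter that BAP itself can switch on, and the sorted cells need not be the same in each zone. In such pooled cells, fewer cells of a type and less RNA per cell cannot be told apart.

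Procambium is the undifferentiated tissue between xylem and phloem in young plant organs. In older parts of the root it gives rise to the vascular cambium, the stem cell layer whose divisions thicken the root and form secondary xylem and phloem. Cytokinin is a main promoter of cambial activity, and its signal runs from histidine kinase receptors through phosphotransfer proteins to response regulators. Type-A response regulators such as ARR5 and ARR15 are rapid targets of that signal and restrain it.

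The values are log2 signals on which every array has the same lowest value, 2.17, and from 28.1% to 31.5% of probe sets per array lie within 0.1 of it. From 47.2% to 49.9% of probe sets per array reached log2 5, the level used here for a signal to count as clear of that floor. ARR15 itself stood at means of 2.66 to 3.02 in the untreated zones, 5.93 to 6.89 in the BAP-treated ones and 2.88 in ARR5::GFP cells. Markers for the zones were few in the annotation. Of 9 cambium regulators 4 have a probe set, and all 4 had higher means in untreated cambium than in untreated procambium. The TDIF peptide genes CLE41 and CLE44 and the receptor-like kinase gene MOL1 had means of 8.72, 6.63 and 9.84 in cambium against 5.16, 2.25 and 7.13 in procambium. LHW, a bHLH factor of vascular cell division, had 8.87 against 8.06 and its highest untreated mean, 9.60, in transition cambium. The root cap polygalacturonase gene RCPG had means of 14.01 in ARR5::GFP cells, 10.95 in BAP-treated procambium and 2.47 to 3.35 in the untreated zones.

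In untreated plants the member means ran from 2.17 to 7.87 in procambium, from 3.77 to 9.73 in transition cambium and from 6.14 to 10.79 in cambium. The medians of these means were 3.62, 5.35 and 7.71. This order chose the genes and is a description. All 3 untreated cambium arrays lay above both untreated procambium arrays in each of the 24 genes, and in 22 genes every array followed the order procambium, transition cambium, cambium. AT4G28460 and AT1G04420 were the exceptions. AT4G28460 read 7.49 and 5.48 in procambium against 7.06 and 8.54 in transition cambium, and AT1G04420 read 5.37 and 5.18 in transition cambium against 7.88, 6.10 and 5.13 in cambium. Over all probe sets kept, 26.4% had their untreated cambium arrays wholly above those of procambium. For transition cambium above procambium the share was 34.4%, and for cambium above transition cambium 8.42%. The share with the full order of the 3 zones was not counted. In 18 of the 24 genes both untreated procambium arrays lay below log2 5, where the size of a step depends on the background model. The order of single arrays can be slight there: AT2G43530 read 2.40 on both procambium arrays and 2.68 on transition cambium replicate 1.

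The genes nearest to the thresholds show where the group ends. AT4G21870 was just inside the lower step at 1.03, and AT5G58330 was just outside it at 0.959. AT2G43030 was just inside the upper step at 1.02, and AT5G28500 just outside at 0.999. AT2G35410 was the member with the lowest untreated cambium mean, 6.14, and the next gene below met the other criteria at 4.97 (AT5G50130). For the BAP effect in cambium, AT1G62290 (0.972) and AT1G12800 (-0.999) lay just inside, and AT2G01610 (1.05) and AT1G50450 (-1.005) just outside. In all, 568 locus-code genes missed the upper step alone and 29 the lower step alone.

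**Figure D1:**
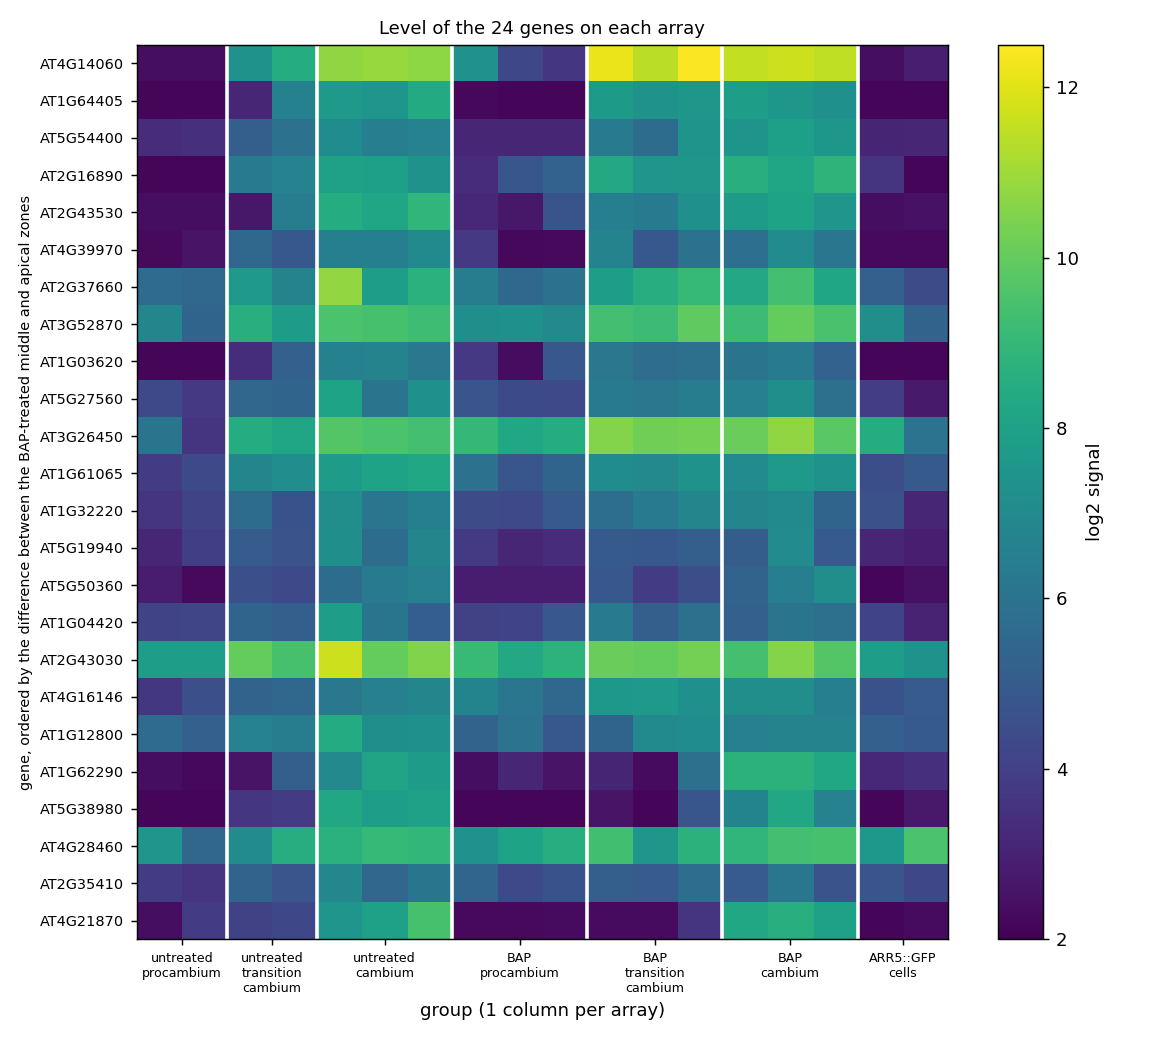
Log2 signal of the 24 genes (rows, ordered by the difference between BAP-treated transition cambium and BAP-treated procambium) on each of the 18 arrays (columns, grouped by zone, treatment and reporter). AT4G14060 at the top reads 12.43 on its brightest BAP-treated transition cambium array and 2.40 on both untreated procambium arrays, and AT4G21870 at the bottom is bright in the cambium arrays and between 2.31 and 3.57 in BAP-treated transition cambium.

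The 6 genes with the highest untreated cambium means were AT4G14060, AT2G43030, AT3G26450, AT3G52870, AT2G37660 and AT4G28460. AT4G14060 had the widest span of the 24 genes, with 2.40 on both untreated procambium arrays, 7.36 and 8.52 in transition cambium and 10.76, 10.89 and 10.72 in cambium. AT2G43030 was bright in every zone, at 7.87 on both procambium arrays, 10.02 and 9.44 in transition cambium and 11.72, 10.03 and 10.50 in cambium. For AT4G14060 and AT2G43030 the untreated zones did not overlap, although in AT2G43030 the highest transition cambium array (10.02) almost reached the lowest cambium array (10.03).

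AT3G26450 read 6.02 and 3.56 in untreated procambium, 8.49 and 8.20 in transition cambium and 9.67, 9.53 and 9.35 in cambium. AT3G52870 read 6.83 and 5.37, then 8.57 and 7.79, then 9.53, 9.46 and 9.23 in the same zones. In both genes the procambium arrays differed from each other by more than the cambium arrays did. AT2G37660 read 5.68 and 5.56 in procambium, 7.67 and 6.68 in transition cambium, and 10.79, 7.84 and 8.69 in cambium. Its SD of 1.52 over the cambium arrays was the largest of the 24 genes in that group. AT4G28460, one of the exceptions above, read 8.70, 9.04 and 8.96 in cambium.

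The question that the BAP arrays can answer independently is whether these genes were also higher in transition cambium than in procambium of treated plants. All 24 genes had the higher mean in BAP-treated transition cambium, and 17 passed limma's test (Benjamini-Hochberg adjustment over all probe sets, threshold 0.05). None was called lower, at an unadjusted p under 0.05 either. Of the 13202 probe sets tested, 15.7% were called higher and 13.5% lower in this comparison. The median difference was 1.73 over the 24 genes and 0.04 over all probe sets tested. Counted from log2 5 where no array of the dimmer group reached it, the median was 1.4, with 4 genes left out as without a size. All 3 transition cambium arrays lay above all 3 procambium arrays in 19 of the 24 genes, against 23.8% of all probe sets. All 24 genes passed the filter of at least 2 of the 16 ARR15::GFP arrays at log2 5, and 19 would have passed on the 6 arrays of this comparison alone. AT5G19940 and AT5G50360, both called, are not among those 19. They passed the filter through groups outside this comparison, such as cambium, where the rule chose them as high.

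AT4G14060 read 12.19, 11.42 and 12.43 in BAP-treated transition cambium and 7.30, 4.29 and 3.67 in BAP-treated procambium. The groups were far apart, although the procambium arrays themselves spread widely (SD 1.94). The log2 difference was 6.92 (adjusted p = 3.96e-06 in limma, standard error 0.66), with 1 of 3 procambium arrays at log2 5 or more. That standard error draws on the spread within all groups of the 16 ARR15::GFP arrays. With only the arrays of the 2 groups compared, the adjusted p was 0.00084 in limma. AT1G64405 read 7.71, 7.36 and 7.56 against 2.23, 2.19 and 2.17. Here the procambium arrays sat at the floor of the scale and the transition cambium arrays were tight. The gene was at least 5.83-fold higher in transition cambium, counted from log2 5 (fitted difference 5.35, standard error 0.60, adjusted p = 1.46e-05 in limma).

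AT5G54400 read 6.33, 5.70 and 7.42 in transition cambium and 3.11 on each procambium array, at least 2.79-fold higher from log2 5 (adjusted p = 1.58e-05 in limma). AT2G16890 read 8.33, 7.50 and 7.54 against 3.34, 4.79 and 5.29. Its difference of 3.32 (standard error 0.42, adjusted p = 4.55e-05 in limma) exceeded the spread in both groups. AT2G43530 read 6.53, 6.34 and 7.25 against 3.18, 2.69 and 4.74, at least 3.26-fold higher (adjusted p = 0.0041 in limma). AT4G39970 read 6.69, 4.88 and 5.97 against 3.73, 2.24 and 2.26. In both genes 1 procambium array stood above the other two without reaching the transition cambium arrays. AT4G39970 was at least 1.80-fold higher (adjusted p = 0.000331 in limma).

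AT2G37660 read 7.88, 8.54 and 9.02 in BAP-treated transition cambium and 6.46, 5.56 and 5.95 in procambium, 5.62-fold higher (log2 difference 2.49, adjusted p = 0.00576 in limma). AT3G52870 read 9.36, 9.21 and 9.92 against 7.24, 7.25 and 6.96. This was a 5.09-fold difference between groups that were clear of the floor on every array (standard error 0.36, adjusted p = 0.000193 in limma). AT1G03620 read 6.17, 5.74 and 5.88 against 3.74, 2.36 and 4.85, at least 1.90-fold higher (adjusted p = 0.00645 in limma). AT5G27560 read 6.31, 6.18 and 6.40 against 4.78, 4.34 and 4.33. Its arrays were tight within each group, and it was at least 2.45-fold higher (adjusted p = 0.00699 in limma).

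The other 7 called genes were AT1G32220, AT1G61065, AT2G43030, AT3G26450, AT4G16146, AT5G19940 and AT5G50360, with differences from 1.40 (AT4G16146) to 1.77 (AT3G26450). For AT5G50360 all 6 arrays lay below log2 5, so no fold is given. For AT5G19940 the bound was at least 1.01-fold. Leaving out each of the 6 arrays in turn kept 13 of the 17 genes called every time. AT5G19940 (adjusted p = 0.0293 in limma) was lost without any transition cambium array or procambium replicate 2 or 3 (0.0558 to 0.0899). AT5G50360 was lost without transition cambium replicate 1 (0.0558), AT1G32220 without replicate 3 (0.0619), and AT2G43030 without transition cambium replicate 3 (0.053) or procambium replicate 2 (0.0538).

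**Figure D2:**
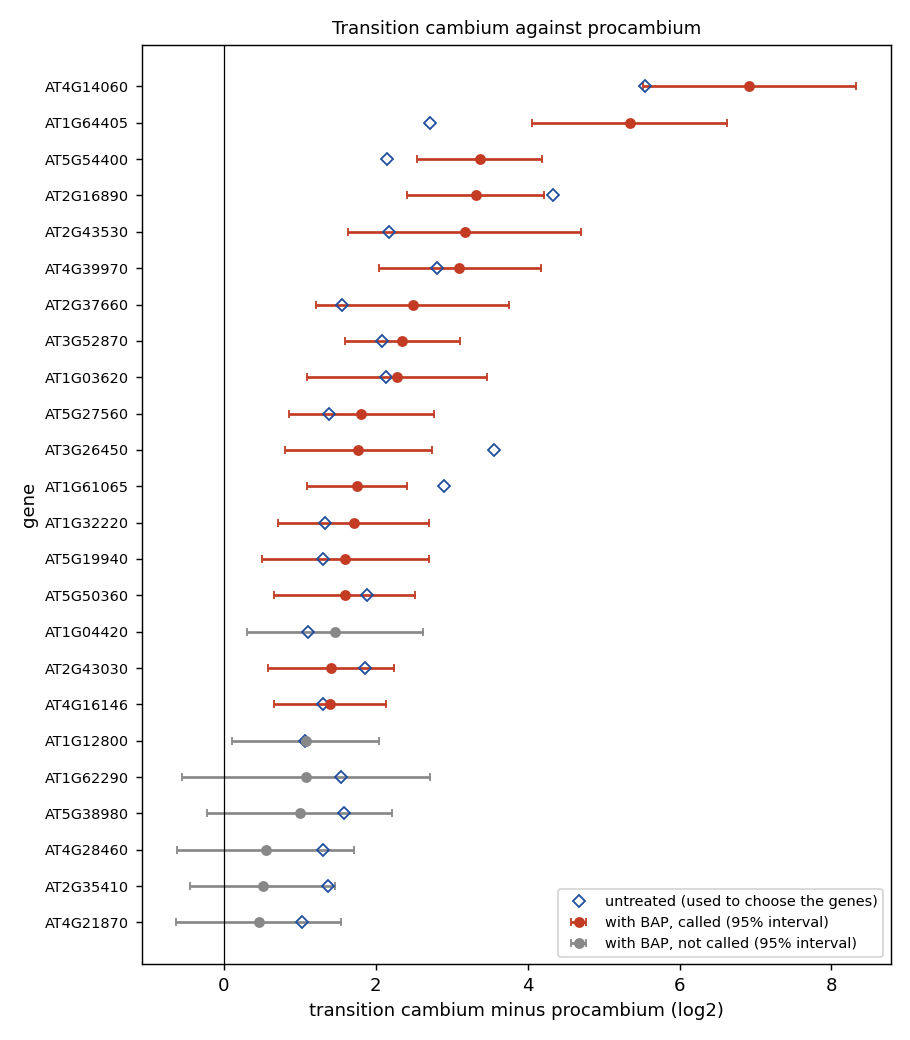
Transition cambium minus procambium on the log2 scale for each gene. Filled circles are the limma estimates in BAP-treated plants with their 95% intervals (3 arrays against 3), red where called, and open diamonds the untreated differences of means that chose the genes. The BAP estimates run from 0.46 for AT4G21870 to 6.92 for AT4G14060, and those of the 7 genes not called lie between 0.46 and 1.46.

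The 5 lowest differences belonged to genes that behaved in different ways. AT4G21870 read 2.31, 2.31 and 3.57 in BAP-treated transition cambium and 2.26, 2.25 and 2.31 in procambium, all near the floor (difference 0.46, 95% interval -0.63 to 1.54). AT5G38980 read 2.54, 2.20 and 4.83 against 2.19 on each procambium array (1.00, interval -0.22 to 2.22). AT1G62290 read 3.09, 2.32 and 5.88 against 2.39, 3.13 and 2.54 (1.08, interval -0.55 to 2.71). In all 3 genes transition cambium replicate 3 was the highest array. AT4G28460 was bright in both zones, at 9.33, 7.54 and 8.74 against 7.31, 8.10 and 8.54 (0.55, interval -0.61 to 1.71), and its groups overlapped. AT2G35410 read 5.18, 5.01 and 5.74 against 5.43, 4.31 and 4.63 (0.52, interval -0.44 to 1.47) and overlapped too.

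AT1G12800 and AT1G04420 missed the adjusted threshold with intervals above 0. AT1G12800 read 5.37, 7.02 and 7.09 in transition cambium against 5.34, 6.00 and 4.89 in procambium (difference 1.08, interval 0.11 to 2.05, adjusted p = 0.0893 in limma), and passed without transition cambium replicate 1 (0.0095), the array that overlapped procambium. AT1G04420 read 6.31, 5.19 and 5.89 against 4.02, 4.12 and 4.87 (1.46, interval 0.31 to 2.62, adjusted p = 0.0549 in limma), with no overlap, and passed without transition cambium replicate 2 (0.0448).

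Other genes moved between the same 6 arrays. Of the 4 cambium regulators kept, MOL1, CLE41 and CLE44 were called higher in BAP-treated transition cambium, at differences of 2.23, 1.94 and 3.15, and LHW was at -0.02 (adjusted p = 0.96 in limma). RCPG, the only root cap marker with a probe set of 4 listed, was lower (difference -5.96, adjusted p = 5.28e-05 in limma), with arrays from 10.34 to 11.50 in procambium and 3.49 to 7.65 in transition cambium. The root hair expansin gene EXPA7 was lower too (difference -2.84, adjusted p = 0.027 in limma), with procambium arrays from 2.39 to 7.37. Of 5 nuclear photosynthesis genes with a probe set, the antenna protein gene LHCB4.1 (1.88) and the photosystem I gene PSAE-1 (2.53) were called higher and none lower. RCA (1.02), SBPASE (0.89) and PSAN (-0.65) were not called. The log2 of the summed signal of these 5 was 7.50 to 8.15 in procambium and 9.33 to 9.95 in transition cambium. LHCB4.1 had the highest mean of the 5 in both zones, 7.22 and 9.09, and so weighed most in these sums. The part of root cap, epidermal or green cells in the result for the 24 genes was not tested, and the xylem, phloem, endodermis and pericycle markers listed have no probe set in the annotation.

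The 3 BAP-treated zones can be set side by side, as a description, since BAP-treated cambium entered the rule. BAP-treated cambium and transition cambium differed by less than 1 in 18 of the 24 genes, and the median difference over the 24 was 0.19. The median over all probe sets kept was -0.01. The share of all probe sets differing by less than 1 was not counted, so the 18 have no background to be set against. In untreated plants the medians were 1.47 over the 24 genes and -0.09 over all probe sets kept. The rule required at least 1 of each gene there, and an effect of BAP on the difference between these zones was not tested. In AT1G64405 the BAP-treated cambium arrays read 7.85, 7.57 and 7.26, overlapping those of transition cambium, while untreated transition cambium read 3.13 and 6.63. AT4G16146 was the only gene with all 3 BAP-treated cambium arrays (7.19, 7.20 and 6.54) below those of transition cambium (7.61, 7.67 and 7.26). Over all probe sets kept, 10.9% had their BAP-treated cambium arrays wholly below.

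Another 6 genes were higher in BAP-treated cambium than in BAP-treated transition cambium by 1 or more. AT4G21870 read 8.27, 8.60 and 8.00 in BAP-treated cambium, 5.56 above transition cambium on the log2 scale. AT1G62290 read 8.75, 8.74 and 8.29, 4.83 above it, and AT5G38980 read 6.72, 8.29 and 6.64, 4.03 above it. These 3 were bright only in cambium among the 6 ARR15::GFP groups, although AT1G62290 reached log2 5 on 1 array of each transition cambium group (5.16 untreated and 5.88 with BAP). The other 3 were AT5G50360 (1.93), AT5G54400 (1.15) and AT2G43530 (1.1). In all 6 genes every BAP-treated cambium array lay above every transition cambium array, by less than 0.01 in AT5G54400. Over all probe sets kept, 9.41% had their cambium arrays wholly above.

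**Figure D3:**
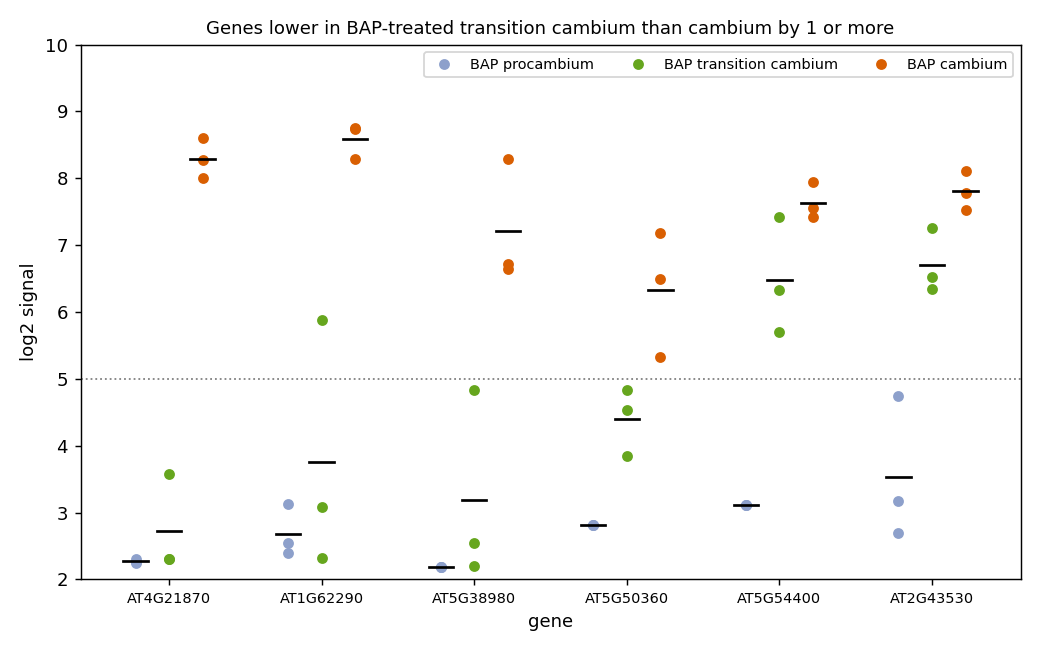
Log2 signal on each BAP-treated array (points) and group mean (bars) for the 6 genes that were higher in BAP-treated cambium than in BAP-treated transition cambium by 1 or more, with 3 arrays per zone and a dotted line at log2 5. AT4G21870, AT1G62290 and AT5G38980 have cambium means above 7 and transition cambium means of 2.73, 3.76 and 3.19, and AT5G54400 and AT2G43530 have intermediate transition cambium levels of 6.48 and 6.70.

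The BAP effect within each zone is likewise a description, because the untreated means chose the genes as low in the apical zones. It ran from -1.43 in AT4G21870 to 4.07 in AT4G14060 in transition cambium, with 19 genes above 0 and a median of 0.80. In procambium it ran from -0.86 in AT4G21870 to 3.81 in AT3G26450, with 19 genes above 0 and a median of 0.59. AT3G26450 read 9.0, 8.28 and 8.50 in BAP-treated procambium, all above both untreated arrays. In AT1G64405, by contrast, procambium stayed at the floor with and without BAP, and in AT5G54400 it was 3.34 and 3.47 untreated and 3.11 on each BAP array. The median BAP effect over all probe sets kept was -0.03 in transition cambium and -0.01 in procambium.

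ARR5::GFP cells gave a second set of arrays that the rule did not use. The 24 genes had means from 2.17 to 8.57 there, with a median of 3.30, and in 17 of them both ARR5::GFP arrays lay below log2 5. Across the 7 groups the lowest mean was in untreated procambium for 10 genes and in ARR5::GFP cells for 9, and 5 genes had their lowest mean, to 2 decimals, in more than 1 group (AT1G03620, AT1G32220, AT1G64405, AT5G38980 and AT5G54400). The 5 brightest genes were AT4G28460 (7.61 and 9.53), AT2G43030 (7.87 and 7.34), AT3G26450 (8.49 and 6.00), AT3G52870 (7.20 and 5.34) and AT1G12800 (5.24 and 4.97). In AT4G28460, AT3G26450 and AT3G52870 the pair of arrays was far apart, with SDs of 1.36, 1.76 and 1.32.

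Against BAP-treated procambium, which differs from the ARR5::GFP sort in reporter, seedling age, treatment and part of the root, 21 of the 24 means were lower in ARR5::GFP cells, against 52.1% of all probe sets tested. In 3 of the 21 the difference was under 0.1, and in 15 of the 24 genes both means lay below log2 5, so no size is given there. Only AT2G16890, AT4G14060 and AT4G16146 passed limma's test, and none was called higher, at an unadjusted p under 0.05 either. Over the 13465 probe sets tested 17.8% were called lower and 13.6% higher, so the share of the 24 genes called lower was no larger than that background. The median difference was -0.68 over the 24 genes and -0.04 over all probe sets tested. Counted from log2 5 where no array of the dimmer group reached it, and without those 15 genes, the median was -0.88. On the 5 arrays of this comparison alone 8 of the 24 genes reach log2 5 at least 2 times. AT4G14060 and AT2G16890 are not among those 8, with 1 such array each, and passed the filter through the zones where they are high. The comparison shares its procambium arrays with the one between BAP-treated zones.

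AT4G14060 read 2.40 and 2.90 in ARR5::GFP cells against 7.30, 4.29 and 3.67 in BAP-treated procambium, a fitted difference of -2.44 (adjusted p = 0.0168 in limma) and at least 1.06-fold lower from log2 5. That bound rests on procambium replicate 1, the only array of the 5 at log2 5 or more: without it the procambium mean was 3.98, no bound could be given and the difference was -1.33. The call was lost without ARR5::GFP replicate 1 (adjusted p = 0.0925) or 2 (0.0576). AT4G16146 read 4.65 and 5.02 against 6.72, 6.12 and 5.51, a difference of -1.28 (standard error 0.38, adjusted p = 0.0191 in limma), lost without ARR5::GFP replicate 1 (0.107) or procambium replicate 1 (0.0775). AT2G16890 read 3.61 and 2.17 against 3.34, 4.79 and 5.29, and its groups overlapped (adjusted p = 0.0299 in limma). That call was lost without ARR5::GFP replicate 2 (0.352) or procambium replicate 2 (0.0775) or 3 (0.114). Conversely, AT3G26450 (0.00797) and AT3G52870 (0.015) were called lower without ARR5::GFP replicate 1, and AT1G03620 (0.00917) and AT2G43030 (0.047) without procambium replicate 2.

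RCPG was higher in ARR5::GFP cells than in BAP-treated procambium by 3.06 (adjusted p = 0.0107 in limma), and the root hair expansin genes EXPA7 and EXPA18 by 3.53 and 3.36 (adjusted p = 0.0151 and 1e-04 in limma). Of the 4 cambium regulators, CLE41 and LHW were lower, with differences of -2.41 and -1.41 (adjusted p = 0.000271 and 0.00499 in limma). The part of such cells in the values of the 24 genes was not tested.

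**Figure D4:**
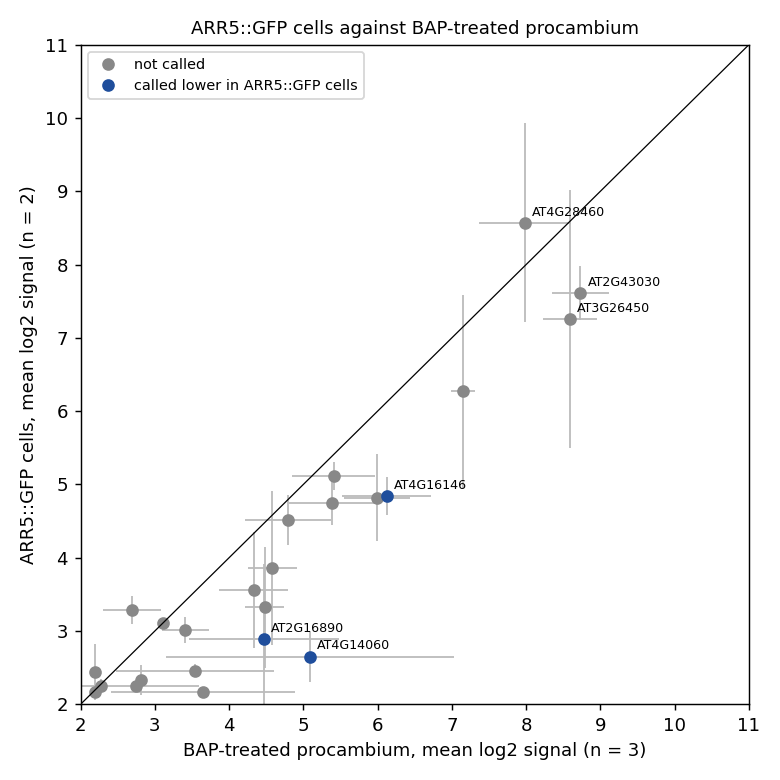
Mean log2 signal of each of the 24 genes in ARR5::GFP cells (n = 2) against BAP-treated procambium (n = 3), with SDs as bars and the line of equal level. Points below the line are lower in ARR5::GFP cells (21 of 24, 3 of them by under 0.1), and the blue points are the 3 genes called.

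Within a group the arrays of these genes differed by a median SD of 0.19 (untreated procambium) to 0.49 (BAP-treated transition cambium). The widest gap was between the 2 untreated transition cambium arrays, where AT2G43530 read 2.68 on replicate 1 and 6.46 on replicate 2, an SD of 2.67. AT1G64405 (3.13 and 6.63), AT1G62290 (2.55 and 5.16) and AT1G03620 (3.37 and 5.24) were also lower on replicate 1. Over the 24 genes the arrays were balanced, with 12 genes higher on replicate 1 and 12 on replicate 2. Without transition cambium replicate 1 the rule gave 28 genes, 18 of them among the 24, and without replicate 2 it gave 22 genes, 14 of them among the 24.

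In cambium many of the 24 genes were highest on the array with the most nuclear photosynthesis signal. This is a description, because the untreated and BAP-treated cambium arrays entered the rule that chose the genes. The shares of all probe sets beside the cambium counts are therefore no independent test. The summed signal of the 5 photosynthesis genes, as log2, was 13.32, 10.88 and 12.35 on untreated cambium replicates 1, 2 and 3, and 13 of the 24 genes were highest on replicate 1, against 31% of all probe sets kept. With BAP the sums were 9.97, 11.60 and 10.13, and 19 of the 24 were highest on replicate 2, against 34.8% of all probe sets. Both held for 12 genes, among them AT2G37660 (10.79, 7.84 and 8.69 untreated, and 8.35, 9.37 and 8.17 with BAP), AT5G27560 (8.09, 6.05 and 7.26, and 6.57, 7.22 and 5.86) and AT2G43030 (11.72, 10.03 and 10.50, and 9.41, 10.55 and 9.70). The share of all probe sets for which both held was not counted, so the 12 have no background to be set against. The untreated cambium range of these 12 genes ran from 0.29 in AT3G52870 to 2.95 in AT2G37660, and that of the other 12 from 0.17 in AT4G14060 to 1.98 in AT4G21870. In BAP-treated transition cambium the sums were 9.45, 9.33 and 9.95, and 15 of the 24 genes were highest on replicate 3, against 36.3% of all probe sets. In BAP-treated procambium the sums were 8.14, 7.50 and 8.15, so replicates 1 and 3 were almost level and gave no single highest array. There 13 of the 24 genes were highest on replicate 1, 3 on replicate 2 and 8 on replicate 3. The shares of all probe sets were 44.5%, 31.5% and 23.9%. Where a group had 2 arrays, replicate 1 had the higher sum. The sums were 7.95 and 7.19 in untreated procambium, 9.27 and 9.08 in untreated transition cambium, and 7.40 and 7.18 in ARR5::GFP cells. In that order, 16, 12 and 13 of the 24 genes were highest on replicate 1, against 54.6%, 56.6% and 58.2% of all probe sets. The untreated procambium and transition cambium arrays entered the rule too. These counts describe 2 or 3 arrays per group, and the part of green cells in them was not tested.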

How the data were processed

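The authors deposited 1 log2 value for each of 22810 probe sets on every array. GCRMA is named in the submitters' processing notes; its version is not given in the sources used here, nor is the set of arrays it was run on. Per the labels' protocols, RNA went through double-cycle amplification. The 64 control probe sets were left out. Of the others, 13513 have 1 gene in the platform annotation, 503 several and 8730 are not listed there; 13436 of the first matched the reference gene table (TAIR10.1), and the probe set with the highest mean stood for a gene. Members and lists were chosen with earlier results of these data known.

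Group means were fitted with limma 3.58.1 in R 4.3.3, with an intensity trend, over probe sets at log2 5 or more on at least 2 arrays: 13202 on the 16 ARR15::GFP arrays (10 residual degrees of freedom) and 13465 on all 18 (11). Calls used a Benjamini-Hochberg adjusted p of 0.05 over all of them. Contrasts that share arrays with the rule got no test. If no array of the dimmer group reached log2 5, brighter over dimmer is given as at least N-fold from log2 5, with no fold where the brighter mean was lower. Errors are SDs over arrays or limma's standard errors; precision is limited by the number of arrays. The fit was tested on simulated data. The title of 1 untreated procambium array holds both a 3 and the words for replicate 2, and 2 was used. No batch is given, so batch and treatment cannot be told apart.

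Values per array are given for the 6 genes highest in untreated cambium, the 10 largest called and 5 lowest differences of the first test and the 5 highest in ARR5::GFP cells. Other members are named with a value or a count, and those given in the paragraphs on BAP-treated cambium and on spread were chosen after their values were seen. Alternatives were other scalings, filters and variance models, a replicate block, the arrays compared alone, and each array left out.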

Additional observations from a re-analysis of the deposited data

How the results depend on the processing

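The count of 17 genes called higher in BAP-treated transition cambium than procambium was 16 or 17 under median centring of each array, quantile normalization, no filter, a filter of 3 arrays at log2 6, no intensity trend, a replicate block or only the 6 arrays compared (19 genes tested), and between 14 and 17 with 1 array left out. Over all probe sets, leaving out 1 array gave 1401 to 1902 higher and 1166 to 1617 lower, the lowest counts without transition cambium replicate 3. The count of 3 genes called lower in ARR5::GFP cells was 1 with no filter, 0 of 8 tested in limma with only the 5 arrays compared (3 at an unadjusted p under 0.05), 2 with the replicate block, and 1 to 4 with 1 array left out, the lowest without ARR5::GFP replicate 2. With only those 5 arrays, 1025 probe sets were higher and 1326 lower, and with 1 array left out 1108 to 1791 and 1355 to 2402. Same-numbered arrays correlated at 0.033 to 0.091 in their deviations from group means, so the replicate numbers were not taken to pair them. The block changed 1 single-gene call, that of AT2G16890 in ARR5::GFP cells (adjusted p = 0.0582). Centring also moved the median of all probe sets from -0.043 to 0.076 in the ARR5::GFP comparison. The rule itself gave 20 genes after centring, 22 with quantile normalization (21 of them among the 24), and 20 to 28 with 1 array left out. No called difference changed direction under these alternatives. The cause of these changes was not tested, apart from the fewer genes and arrays that some of them use.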

Other observations

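The 24 genes are spread over the genome, with 7 on chromosome 1, 5 each on chromosomes 2, 4 and 5, and 2 on chromosome 3, and no pair lies closer than 53 protein-coding genes in the order of the reference table. Of the 96 loci within 2 protein-coding genes of a member on either side, 25 have a probe set that was kept. Only PSB27, a photosystem II assembly gene next but 1 to AT1G03620, was higher by at least 1 at both steps in untreated plants, with means of 6.34, 7.72 and 9.93, which is 4% of these neighbours against 1.54% of all probe sets kept. AT3G26460, beside AT3G26450, had means of 3.51 in untreated procambium, 9.75 in transition cambium and 10.49 in cambium, and 8.88 and 12.3 in BAP-treated procambium and transition cambium. AT2G43535, beside AT2G43530, had untreated means of 8.21, 10.9 and 11.28, but 11.5 and 11.61 in BAP-treated procambium and transition cambium, almost level. These neighbours were picked after their values were seen.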
